A study of Mus musculus with 6 samples.

Results

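Aminoacyl-tRNA synthetases are the enzymes that join each amino acid to its transfer RNA, and they were followed here as a set of 38 listed genes in a microarray series on kinase inhibition in Ba/F3 cells. The list held 20 genes of cytosolic enzymes, 16 of mitochondrial enzymes, and Aimp1 and Aimp2, which encode scaffold proteins of the cytosolic multisynthetase complex. A member counted as measured when the platform annotation gave a probe set with its symbol alone, and where a gene had several, the brightest by mean log2 signal stood for it. This gave 28 members of the 12393 genes of the series, namely 18 cytosolic, 8 mitochondrial and 2 scaffold genes. Dars, Mars, Aars2, Cars2, Lars2, Mars2, Nars2, Vars2, Wars2 and Yars2 were not analysed here.

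Ba/F3 cells, from mouse and labelled as pro-B cells, grow on interleukin 3 (IL3), which an active kinase can replace. The 3 lines held the empty vector pMSCV or expressed ETV6-PDGFRB or FIP1L1-PDGFRA, fusion kinases of myeloid neoplasms. The fusion lines had been selected to grow without IL3, and the empty-vector cells were kept in IL3. Every line was grown in DMEM with 10% serum and was sampled untreated and after 4 h in 100 nM imatinib (Glivec), which blocks PDGF receptor kinases, with 1 array per condition. The fusion gene, the selection and the lack of IL3 cannot be told apart in comparisons with the vector cells, and in bulk samples fewer cells of a type and less RNA per cell cannot be told apart either. The labels name neither clones nor separate cultures, and p-values measure only the spread between these arrays.

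Charging takes place separately in the cytosol and in mitochondria, and most amino acids have a nuclear gene for each compartment, with the mitochondrial one marked by the suffix 2. The enzymes fall into class I and class II by the fold of the catalytic domain. In animal cells several cytosolic enzymes are held with scaffold proteins in the multisynthetase complex. Transcription of many cytosolic synthetase genes is known to respond to ATF4, a factor of the amino acid and stress response, and MYC is known to raise genes of protein synthesis in growing cells.

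The arrays carried MAS5 signals, intensities per probe set on a linear scale, with the mean after trimming 2% at each end at 100.0 on all 6. Signals under the floor of 20.1, the 50th percentile taken per array and then the median of the 6, were set to it. Of 15 pro-B and B cell markers, 10 were under the floor on every array, among them Pax5, Ebf1, Rag1 and Vpreb1, while Ptprc ranged from 606 to 892. The IL3 receptor beta chain gene Csf2rb ranged from 1193 to 1616. Mast cell and basophil markers summed to 1004 to 1176 in vector cells, 4124 before and 5646 after imatinib with ETV6-PDGFRB, and 607 before and 1174 after it with FIP1L1-PDGFRA. Cma1 (2574 and 3615) and Cpa3 (814 and 1060) made up most of the ETV6-PDGFRB sums, and Gata2 (743 and 581) most of the vector sums. In that list 4 of 10, Kit, Fcer1a, Ms4a2 and Tpsb2, were under the floor throughout. By the test of imatinib in fusion cells given below, 3 of 6 tested rose. Erythroid markers rose in 4 and fell in 1 of 5 tested, and B cell markers rose in 1 and fell in 1 of 5. Among all tested genes 13.5% rose and 12.4% fell. Fibroblast markers summed to 53.6, 482 and 72.5 in untreated vector, ETV6-PDGFRB and FIP1L1-PDGFRA cells, with 4 of 5 under the floor throughout. Myeloid markers summed to 349, 120 and 325 in the same order, with 5 of 7 under the floor throughout. The part of these marker changes in the synthetase results was not tested.

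After imatinib, transcripts of many cytosolic synthetases fell in the fusion lines. None of the 8 measured mitochondrial ones was called as falling, which is near the share of all genes (12.4%) for so small a set. Of 18 cytosolic genes 9 fell, 0 rose and 9 did not pass, and of 8 mitochondrial genes 0 fell, 1 rose and 7 did not pass. The scaffold gene Aimp2 fell and Aimp1 did not pass. Together 10 of 28 members fell and 1 rose, where 12.4% of all 6808 tested genes fell and 13.5% rose. The genes that fell were Tars, Wars, Yars, Rars, Iars, Farsb, Nars, Aars and Lars, by log2 changes from -0.98 to -0.38, and the one that rose was Sars2. The median log2 change over the cytosolic genes was -0.38, against 0.00 over the mitochondrial genes and 0.04 over all genes tested. These values come from limma, with both fusion lines taken as repeats of a PDGFR fusion line, the line as a block, and the IL3 pair as a further measure of spread. Adjusted p under 0.05 (Benjamini-Hochberg over all tested genes) is the threshold for rose and fell. With either fusion line left out a single fusion pair remained, a design too small to bear on the calls. The log2 change was then that line's own ratio, below 0 for all 10 genes in each line. The 10 genes were picked by a fit to these same arrays, so their sign is no separate check. Scaling to hybridization controls gave 19 members that fell, 3 of them mitochondrial (Rars2, Tars2 and Iars2), and 0 that rose, with 1880 of all genes falling. A floor at the 40th percentile gave 6 that fell, Ears2 among them, and a fit without the filter on low signals gave 0.

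**Figure D1:**
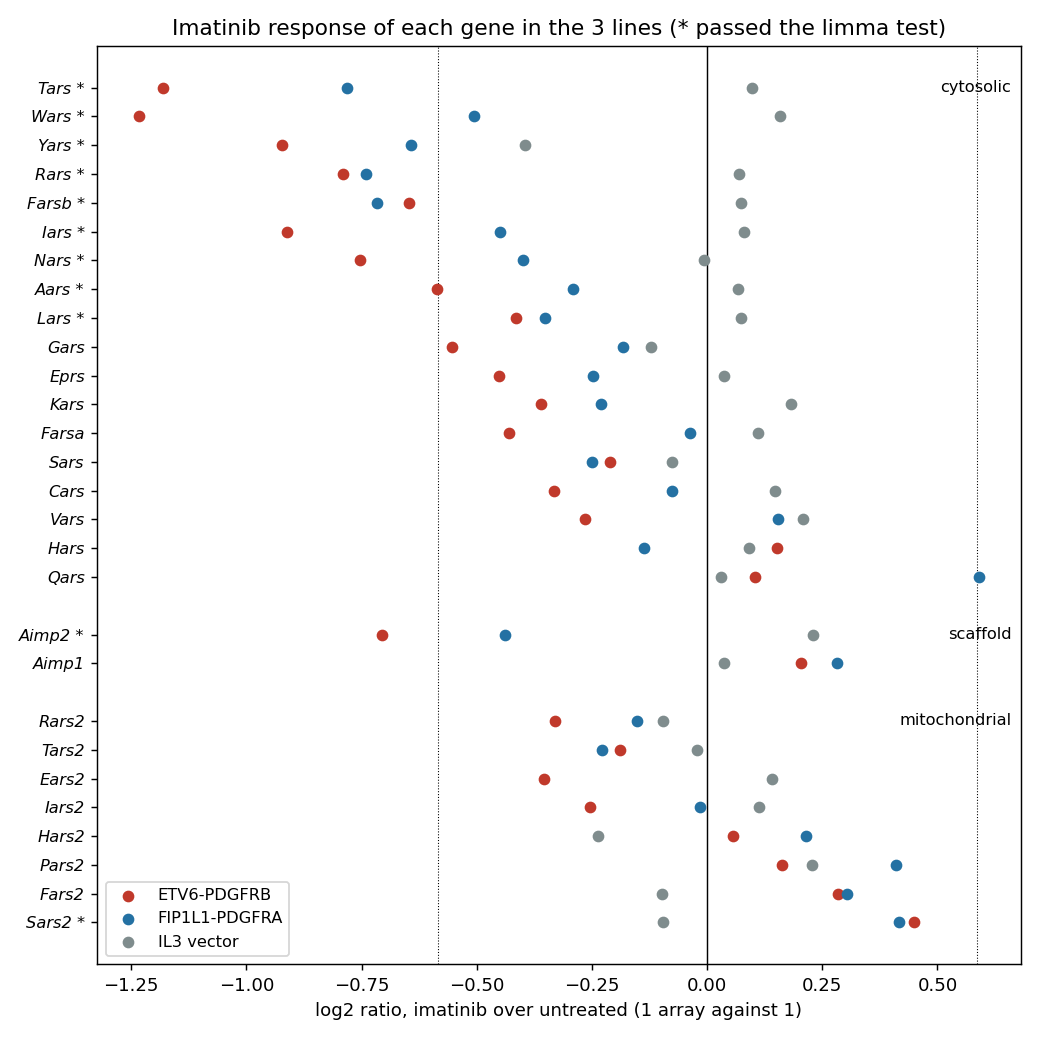
Log2 ratio of imatinib over untreated signal (x axis) for each of the 28 members (y axis), with 1 point per line and 1 array behind each side of the ratio. Dotted lines mark 1.5-fold and a star marks genes that passed the limma test. The 9 starred cytosolic genes lie to the left of 0 in both fusion lines, while the mitochondrial genes lie between -0.35 and 0.45, with Ears2 at -0.35 as an upper bound.

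Promoter sequences are shown for the genes that fell and whose window held either of a pair of motifs. The windows are RefSeq promoters of the GRCm38.p6 build, read in the direction of the gene, from 150 bases before the annotated start to 30 bases from it. Capitals mark matches to CACGTG, the E-box recognised by MYC and its partner MAX and by related factors, and to TGATGNAA on either strand, the core of the amino acid response element recognised by ATF4 with a C/EBP partner. CACGTG reads the same on both strands, and no matches overlapped.
Tars, chr15:11399629-11399808, minus strand: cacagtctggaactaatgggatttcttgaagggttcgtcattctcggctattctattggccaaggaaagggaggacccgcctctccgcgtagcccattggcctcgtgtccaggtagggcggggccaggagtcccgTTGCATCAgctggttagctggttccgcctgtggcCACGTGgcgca
Yars, chr4:129189753-129189932, plus strand: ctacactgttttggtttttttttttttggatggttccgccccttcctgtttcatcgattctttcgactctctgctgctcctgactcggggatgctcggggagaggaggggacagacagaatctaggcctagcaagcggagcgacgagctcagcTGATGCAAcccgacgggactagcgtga
Farsb, chr1:78488868-78489047, minus strand: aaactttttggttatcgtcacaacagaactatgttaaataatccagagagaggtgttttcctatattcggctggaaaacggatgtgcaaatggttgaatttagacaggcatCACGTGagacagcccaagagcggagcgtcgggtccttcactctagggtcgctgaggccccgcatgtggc
Iars, chr13:49681980-49682159, plus strand: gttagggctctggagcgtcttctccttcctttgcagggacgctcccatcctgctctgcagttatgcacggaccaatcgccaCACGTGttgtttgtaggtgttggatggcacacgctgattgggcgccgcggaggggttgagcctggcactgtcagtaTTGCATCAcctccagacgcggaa
Aars, chr8:111033692-111033871, plus strand: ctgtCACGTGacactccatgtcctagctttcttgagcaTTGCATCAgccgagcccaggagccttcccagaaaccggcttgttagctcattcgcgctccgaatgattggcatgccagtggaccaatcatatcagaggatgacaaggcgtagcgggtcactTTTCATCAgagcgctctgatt
In the Tars window the response element core begins 15 bases before the start and the E-box 19 bases after it. The Iars window has an E-box beginning 69 bases before the start and a core 7 bases after it. In the Aars window an E-box begins 146 bases before the start and cores lie 112 bases before and 9 bases after it.

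Windows of the full 300 bases were searched for 19 members, among them 6 of the 10 that fell; those of Rars and Wars were not analysed here, nor were windows on chromosome 18, which holds Lars, Nars, Hars and Hars2. The E-box was present in 4 of these 6 (Tars, Farsb, Iars and Aars) and the core in 4 (Tars, Yars, Iars and Aars). Aimp2, which also fell, had neither. Among the other 13 members, 1 held an E-box (Ears2) and 1 a core (Gars). All mitochondrial members searched are among these 13, so fall and compartment cannot be told apart in this contrast. Of 27025 promoters of the same length outside chromosome 18, 7.24% held an E-box and 4.06% the core. A match describes these letters and shows no binding.

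Tars, which charges threonine tRNA, had the largest fall among the members. Its signal was 370 in untreated and 396 in treated vector cells. With ETV6-PDGFRB it went from 368 to 162, with FIP1L1-PDGFRA from 448 to 260, so both treated fusion arrays lay under all 4 other arrays. The log2 change was -0.98 ± 0.13 (SE, limma adjusted p = 0.0093).

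Rars, the arginine enzyme of the multisynthetase complex, fell by nearly the same amount in both fusion lines. The signal was 823 before and 476 after treatment with ETV6-PDGFRB, and 802 before and 480 after with FIP1L1-PDGFRA. Vector cells read 736 and 772, above both treated fusion arrays. Rars changed by -0.76 ± 0.09 (SE, limma adjusted p = 0.00772).

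Farsb encodes the beta subunit of the phenylalanine enzyme and Farsa the alpha subunit. Farsb read 367 and 386 in vector cells, 339 before and 217 after imatinib with ETV6-PDGFRB, and 413 before and 251 after with FIP1L1-PDGFRA. Both treated fusion arrays were the lowest, and the log2 change was -0.68 ± 0.09 (limma adjusted p = 0.0095). Farsa, singled out after its values were seen as the partner subunit, went from 443 to 329 with ETV6-PDGFRB but from 431 to 420 with FIP1L1-PDGFRA. It did not pass (-0.23 ± 0.13, adjusted p = 0.217). The 2 subunits thus had log2 ratios of -0.72 and -0.04 in FIP1L1-PDGFRA cells, a difference that was not tested.

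Iars and Lars charge the branched amino acids isoleucine and leucine inside the complex. Iars read 320 and 338 in vector cells, went from 359 to 191 with ETV6-PDGFRB, and from 345 to 252 with FIP1L1-PDGFRA. Its log2 change was -0.68 ± 0.13 (adjusted p = 0.0243). Both treated fusion arrays were again the lowest of the 6. Lars went from 287 to 216 with ETV6-PDGFRB and from 300 to 235 with FIP1L1-PDGFRA, against 310 and 326 in vector cells (-0.38 ± 0.09, adjusted p = 0.0343). Lars was no longer called with a floor at the 40th percentile or with the 4 fusion arrays alone.

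Nars and Aars, for asparagine and alanine, started slightly higher in FIP1L1-PDGFRA than in vector cells, at 1.16-fold and 1.22-fold, a difference that was not tested. Nars read 666 and 664 in vector cells, 641 then 380 with ETV6-PDGFRB, and 772 then 585 with FIP1L1-PDGFRA, and changed by -0.58 ± 0.11 (adjusted p = 0.0247). Aars went from 500 to 333 with ETV6-PDGFRB and from 631 to 515 with FIP1L1-PDGFRA. In vector cells Aars was 515 and 540, so the treated FIP1L1-PDGFRA array was level with the untreated vector array. The Aars change of -0.44 ± 0.11 (adjusted p = 0.041) was lost with the 4 fusion arrays alone and when the floor was at the 40th percentile.

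Yars, the tyrosine enzyme, was also lower after imatinib in vector cells. It went from 200 to 152 there, from 227 to 120 with ETV6-PDGFRB and from 194 to 124 with FIP1L1-PDGFRA. By the chosen probe sets its log2 ratio of -0.39 was the lowest of the 28 members in the IL3 pair. A second Farsb probe set had -0.38 there. The fusion change of Yars was -0.78 ± 0.16 (SE, limma adjusted p = 0.0264), and the fusion response minus the IL3 response was -0.39. The call was lost with a floor at the 40th percentile.

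Aimp2, the scaffold protein that bridges synthetases in the complex, read 548 and 642 in vector cells. It went from 552 to 338 with ETV6-PDGFRB and from 522 to 385 with FIP1L1-PDGFRA. Both treated fusion arrays were the lowest, and the log2 change was -0.57 ± 0.13 (limma adjusted p = 0.0305), a call lost with a floor at the 40th percentile. Aimp1, which also yields a secreted cytokine, had ratios of the other sign. Named after its values were seen, it went from 495 to 570 and from 585 to 711 in the fusion lines, with 560 and 574 in vector cells (0.24 ± 0.09, adjusted p = 0.0955).

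**Figure D2:**
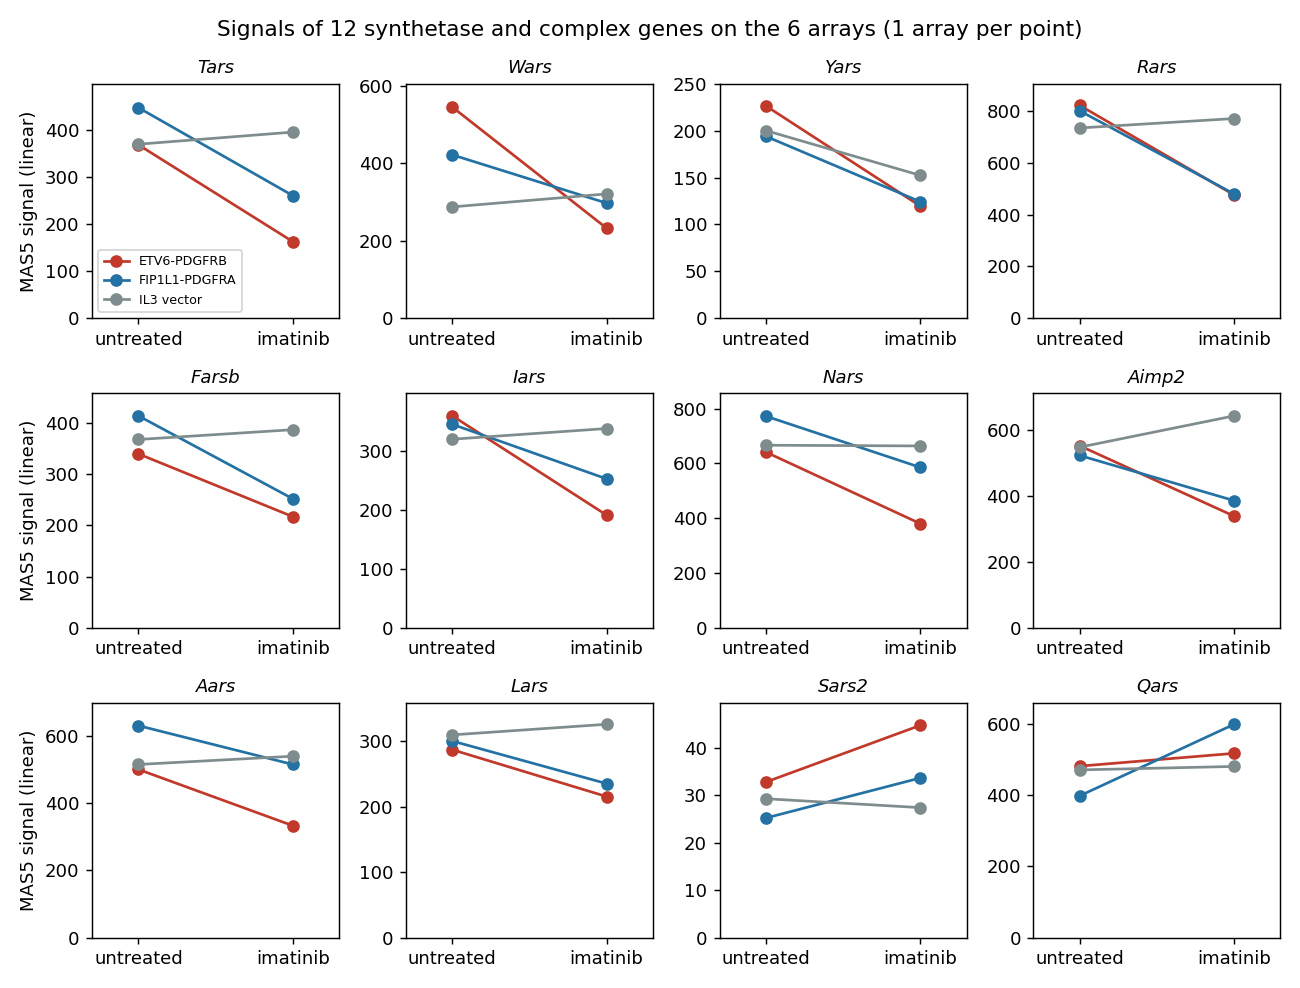
Signals (y axis, linear MAS5 units, from 0) on the untreated and imatinib arrays of each line for the 10 members that fell, for Sars2, which rose, and for Qars. Each point is 1 array. Wars has its highest signal, 545, on the untreated ETV6-PDGFRB array, and Qars is the cytosolic gene with the highest log2 change.

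Wars, the tryptophan enzyme and a gene known to be induced by interferon gamma in human cells, started higher in both fusion lines than in vector cells. Untreated, it read 287 in vector cells, 545 with ETV6-PDGFRB and 422 with FIP1L1-PDGFRA. After imatinib the levels were 321, 232 and 297 in the same order, so the fusion lines no longer stood above the vector cells. The fall was -0.87 ± 0.19 on the log2 scale (SE, limma adjusted p = 0.0294), and it was lost with a floor at the 40th percentile. All 4 Wars probe sets were highest on the untreated ETV6-PDGFRB array and lower after imatinib in both fusion lines. Their log2 ratios were -1.23 to -1.07 in ETV6-PDGFRB cells and -1.09 to -0.23 in FIP1L1-PDGFRA cells.

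**Figure D3:**
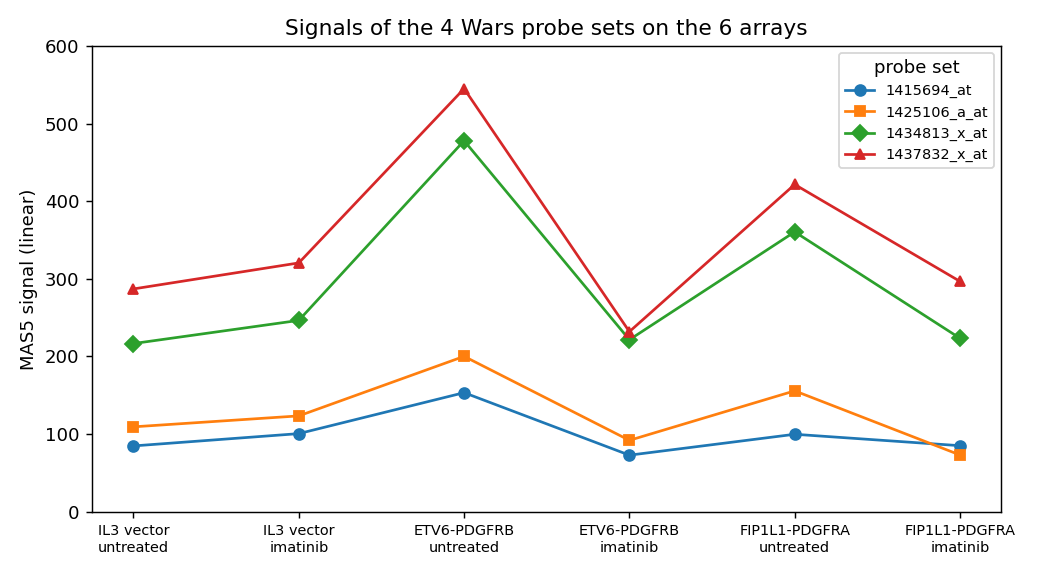
Signal (y axis, linear MAS5 units) of the 4 Wars probe sets on the 6 arrays, 1 point per array; lines join the arrays only to guide the eye. Each probe set peaks on the untreated ETV6-PDGFRB array, at 153 to 545.

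The other cytosolic enzymes had smaller log2 changes that did not pass. Gars and Kars, for glycine and lysine, each encode both the cytosolic and the mitochondrial enzyme. Gars had a log2 change of -0.37 ± 0.12 (adjusted p = 0.0841), and Kars one of -0.30 (adjusted p = 0.0963). Eprs, the fused glutamate and proline enzyme, had an adjusted p of 0.053 at -0.35 ± 0.10, and it passed with a floor at the 60th percentile, with the pseudocount and with scaling to hybridization controls. Sars, Cars and Vars had log2 changes of -0.23, -0.20 and -0.05, and Hars, the histidine enzyme, had 0.01. By the chosen probe sets Vars and Hars had opposite signs in the fusion lines. A second Hars probe set had -0.28 with ETV6-PDGFRB and -0.07 with FIP1L1-PDGFRA.

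Qars, the glutamine enzyme, was the cytosolic gene with the highest log2 change. Named after its values were seen, it read 471 and 481 in vector cells, 482 then 518 with ETV6-PDGFRB, and 398 then 599 with FIP1L1-PDGFRA. The change of 0.35 ± 0.14 did not pass (adjusted p = 0.119), but the mean over its 4 probe sets did (0.33, adjusted p = 0.0302). By the chosen probe set Qars was the member past 1.5-fold upwards in FIP1L1-PDGFRA cells, with log2 ratios of 0.59 there and 0.10 with ETV6-PDGFRB. Another bright Qars probe set had 0.33 with FIP1L1-PDGFRA and 0.88 with ETV6-PDGFRB (338 to 622), and a dimmer one 0.44 and 0.26. Which line passed 1.5-fold thus depended on the probe set.

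Genes that fell came from both enzyme classes and from inside and outside the complex. In the cytosol 5 of 8 class I genes and 4 of 9 class II genes fell, with Eprs belonging to both classes. Of the 6 measured synthetases of the complex 3 fell (Rars, Iars and Lars), and outside it 6 of 12. Among all tested genes 12.4% fell. Medians of the log2 change were -0.37 in the complex and -0.40 outside it.

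Mitochondrial synthetases had low signals and small ratios of both signs. Sars2, for serine, read 29.3 and 27.4 in vector cells, 32.8 then 44.8 with ETV6-PDGFRB, and 25.2 then 33.7 with FIP1L1-PDGFRA. It rose by 0.43 ± 0.09 on the log2 scale (adjusted p = 0.0264). Its signals lay close to the floor of 20.1, and the call was lost with a floor at the 40th percentile, with hybridization control scaling and with the 4 fusion arrays alone. Fars2, for phenylalanine, had a log2 change of 0.29 ± 0.09 (adjusted p = 0.0677), and Pars2, for proline, one of 0.29 ± 0.12 (adjusted p = 0.144). Rars2 and Tars2, for arginine and threonine, had log2 changes of -0.24 and -0.21, Iars2 of -0.13 and Hars2 of 0.14. Ears2, for glutamate, was above the floor on only 3 arrays, with a highest signal of 25.7. With ETV6-PDGFRB it went from 25.7 to 12.5, under the floor, so its log2 ratio of -0.35 there is an upper bound and may lie past 1.5-fold.

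Set side by side for the same amino acid, the cytosolic gene had the lower log2 ratio in 7 of 8 pairings in ETV6-PDGFRB cells and in 8 of 8 in FIP1L1-PDGFRA cells. In the IL3 pair it was lower in 3 of 9. The glutamate pairing (Eprs at -0.45, Ears2 at most -0.35) is undecided in ETV6-PDGFRB cells and is not counted there. Some pairings share a gene, since Fars2 stands against both Farsa and Farsb and Eprs against both Ears2 and Pars2. For threonine the ratios were -1.18 for Tars and -0.19 for Tars2 with ETV6-PDGFRB, and -0.78 and -0.23 with FIP1L1-PDGFRA. For arginine they were -0.79 and -0.33, and -0.74 and -0.15. Among the 8 the exception was histidine in ETV6-PDGFRB cells, with 0.15 for Hars and 0.06 for Hars2. A second Hars probe set had -0.28 there, so the exception rests on the chosen one. A factor applied to a whole array cancels in these differences, but an effect that varies with signal level does not. The paired genes differed in level, as with Sars at 478 to 582 and Sars2 at 25.2 to 44.8. The part of signal level in these differences was not tested. The median of the cytosolic ratios minus that of the mitochondrial ones was -0.44 with ETV6-PDGFRB, -0.48 with FIP1L1-PDGFRA and 0.13 in vector cells.

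Line by line, ETV6-PDGFRB cells had the lower ratios. The median over the 18 cytosolic genes was -0.50 in ETV6-PDGFRB cells, -0.27 in FIP1L1-PDGFRA cells and 0.07 in vector cells, beside 0.03, 0.05 and 0.01 over all measured genes. By the chosen probe sets, 9 of 28 members were at least 1.5-fold lower in ETV6-PDGFRB cells, where 9.24% of all genes were. In FIP1L1-PDGFRA cells 4 of 27 were, where 8.99% of all genes were. These 4 (Tars, Rars, Farsb and Yars) were 1.5-fold lower in both lines, as were 369 of 6640 genes in all. Higher by 1.5-fold, by the chosen probe sets, were 0 members in ETV6-PDGFRB cells (8.63% of all genes) and 1 in FIP1L1-PDGFRA cells (9.03%). By the chosen probe sets, a 2-fold limit was passed downwards by Wars and Tars in ETV6-PDGFRB cells (2.86% of all genes). In FIP1L1-PDGFRA cells 0 members passed it (2.97%). Other probe sets of Iars (-1.18) and Farsb (-1.34 and -1.11) passed it with ETV6-PDGFRB, and another of Wars (-1.09) with FIP1L1-PDGFRA. In vector cells 0 members were 1.5-fold lower (0.539% of all genes) and 0 higher (0.914%), with ratios from -0.39 to 0.23.

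By the chosen probe sets 27 members had a ratio in both fusion lines. Of these, 19 were lower after imatinib in both, 6 higher in both and 2 had opposite signs. Among 6640 genes 33.6% were lower in both and 42.8% higher in both. The ratio was lower in ETV6-PDGFRB than in FIP1L1-PDGFRA cells for 22 of the 27, against 53.6% of all genes. Where the ratios differed by over 0.2 on the log2 scale, 15 members were lower in ETV6-PDGFRB cells. In FIP1L1-PDGFRA cells 1 was lower, Hars by its chosen probe set. With 1 array per condition this difference between the lines was not tested. Limma's test of the fusion minus the IL3 response passed for 0 of 28 members and 0.0% of all genes. At an unadjusted p under 0.05 it held for 7 of 28 members, Tars, Wars, Rars, Aimp2, Iars, Farsb and Sars2. It held for 1179 of all 6808 tested genes, with a lowest adjusted p of 0.114. The chosen probe sets of Iars and Farsb had IL3 ratios of 0.08 and 0.07. Other bright ones had -0.21 for Iars, and -0.38 and -0.13 for Farsb. With the pseudocount 1 member, Tars, passed.

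Before treatment the fusion lines and the vector cells had close levels of most members. The cytosolic median log2 ratio to vector cells was 0.05 for ETV6-PDGFRB and 0.11 for FIP1L1-PDGFRA, and the mitochondrial one 0.15 and -0.10. Wars, at 1.90-fold, was the 1 member of 28 past 1.5-fold upwards in ETV6-PDGFRB cells, where 6.41% of all genes were, and 0 were past it downwards (3.42%). In FIP1L1-PDGFRA cells 0 members passed it upwards (4.12%) or downwards (2.35%), with Wars at 1.47-fold. Between treated arrays, 10 members were at least 1.5-fold lower in ETV6-PDGFRB than in vector cells (10.9% of all genes) and 1, Sars2, was higher (14.5%). The same comparison for FIP1L1-PDGFRA cells gave 4 lower members (8.52%) and 1 higher, Fars2 (8.49%). The imatinib and the vector comparisons share arrays and are not independent of each other.

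Partners of tRNA charging outside the member list fell in 4 and rose in 1 of 13 cases, where 12.4% of all tested genes fell and 13.5% rose. Eef1e1, the remaining scaffold protein of the multisynthetase complex, read 514 and 576 in vector cells, 595 then 221 with ETV6-PDGFRB, and 649 then 248 with FIP1L1-PDGFRA. Its log2 change was -1.41 ± 0.10 (limma adjusted p = 0.00355). Trnt1, which adds the CCA end to tRNAs, fell by 0.91 ± 0.16 (adjusted p = 0.0177). Gatc and Qrsl1, subunits of the mitochondrial enzyme that makes glutaminyl-tRNA by amidation, fell by 0.67 ± 0.10 and 0.53 ± 0.09. Gatb, its remaining subunit, rose by 0.42 ± 0.10, with signals of 10.3 to 33.7 that lay partly under the floor.

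In tRNA processing and modification 12 of 38 genes fell and 2 rose, where 12.4% of all tested genes fell and 13.5% rose. Elac2, which trims the 3' end of tRNA precursors, fell by 0.81 ± 0.10 (adjusted p = 0.00899), and the pseudouridine synthase genes Pus7 and Pus3 by 0.73 ± 0.08 and 0.68 ± 0.16. Tsen15, of the tRNA splicing endonuclease, rose by 0.75 ± 0.09 (adjusted p = 0.00825). In the list of ATF4 and amino acid supply 9 of 32 fell and 4 rose, beside the same shares of all genes. The 4 that rose were Glul, given below, and Ddit3, Ddit4 and Atf5, by 0.67 ± 0.18, 0.58 ± 0.14 and 0.39 ± 0.10. Atf5 signals lay close to the floor. Atf4 itself read 446 and 443 in vector cells, 871 then 311 with ETV6-PDGFRB, and 744 then 453 with FIP1L1-PDGFRA, and fell by 1.10 ± 0.19 (adjusted p = 0.0177). Like Wars it started higher in the fusion lines. Trib3 and Mthfd2 fell by 0.97 ± 0.21 and 0.92 ± 0.13 (Trib3 was also lower after imatinib in vector cells, 51.6 to 34.7), and Glul, the glutamine synthetase gene, rose by 1.13 ± 0.14. Myc read 724 and 722 in vector cells, 656 then 232 with ETV6-PDGFRB, and 681 then 180 with FIP1L1-PDGFRA, and fell by 1.71 ± 0.12 (adjusted p = 0.00383).

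**Figure D4:**
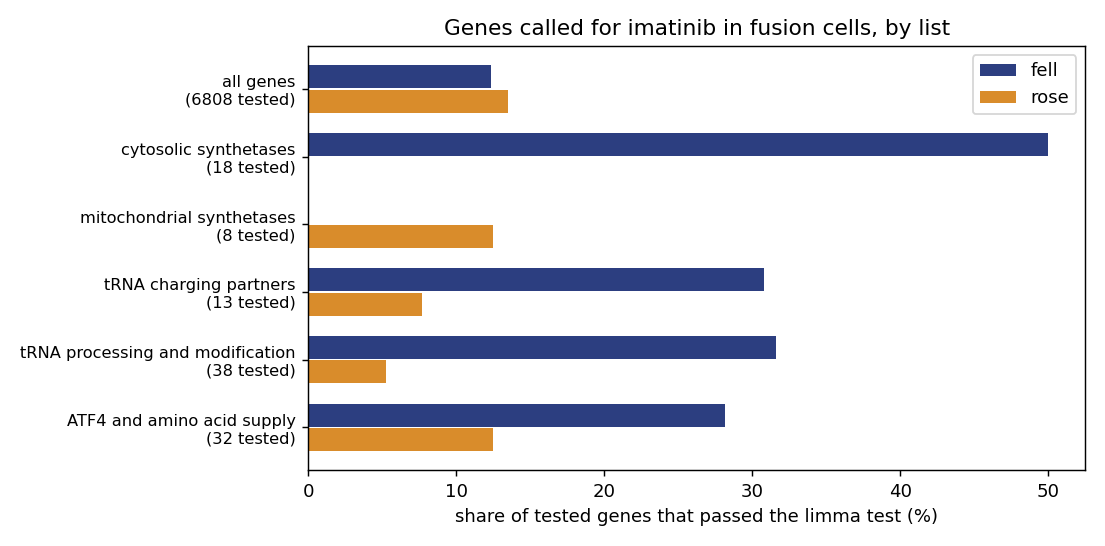
Share of tested genes that fell (blue) or rose (orange) in the limma fit of imatinib in fusion cells (x axis, percent), for all genes and for each list (y axis, with the number tested). The mitochondrial synthetases have no gene that fell among 8 tested, too few to set apart from the 12.4% of all genes that fell.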

How the data were processed

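The deposited values are intensity signals on a linear scale, and the submitters' processing notes name GCOS 1.4.0 with MAS5 as the authors' software. Detection calls are not given in the sources used here. Equal trimmed means show that each array was scaled to a common level, so levels are relative to the array. Of 22690 probe sets, those with 1 symbol in the platform annotation were used, without control probe sets. Signals were floored at 20.1 and log2 transformed, and a ratio was taken where at least 1 of its arrays exceeded the floor. Genes above it on at least 2 arrays were fitted with limma 3.58.1 (R 4.3.3; lmFit, eBayes), with 2 residual and 3.10 prior degrees of freedom, and p-values were adjusted by Benjamini-Hochberg. The fit was tested on simulated data. These had the same noise level for all genes and equal changes in both fusion lines, so they do not bear on the calls here. Counts past 1.5-fold have no test. By rule, all 6 signals are given for members past adjusted p 0.05 (up to 12 cytosolic or complex and 6 mitochondrial, by size of change). Up to 4 passing genes per other list are named by size, and Atf4 and Myc always. Gatb, Ddit3, Ddit4 and Atf5 were named after their values were seen. Members and lists were chosen with earlier results of these data known. Other steps used Python 3.11.15, numpy 2.4.6 and pandas 2.3.3. The number of arrays limits the precision. Alternatives covered the floor, a pseudocount of 16, scaling, probe set choice, the filter and the arrays fitted.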

Additional observations from a re-analysis of the deposited data

Results flagged for a closer look

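Aimp2 had a log2 ratio of 0.23 in the IL3 pair, opposite in sign to -0.71 with ETV6-PDGFRB and -0.44 with FIP1L1-PDGFRA, with all 3 beyond 0.2. Limma's test of the fusion response minus the IL3 response gave -0.80 for Aimp2 with an unadjusted p of 0.0185, and it did not pass after adjustment over all genes (adjusted p = 0.217). A second Aimp2 probe set, above the floor on all 6 arrays, had an IL3 ratio of 0.08, under the 0.2 limit, so the opposition rests on the chosen probe set.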

How the results depend on the processing

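Untreated and treated arrays were paired by line, which was a block in every fit, and the labels give no replicate numbers for a further block. All 10 members that fell kept a log2 change below 0 under all 10 alternatives to the fit, and the calls were less steady. These members were picked by their falls on the same arrays, so their sign is no separate check. With hybridization control scaling, which moved the median of all genes to -0.15 (ETV6-PDGFRB) and -0.22 (FIP1L1-PDGFRA), 19 members fell and 0 rose (15 cytosolic and 3 mitochondrial genes fell), and over all genes 1880 fell and 395 rose. It gave cytosolic medians of -0.69 and -0.54 and turned the mitochondrial median in FIP1L1-PDGFRA cells from 0.21 to -0.059, still above that of all genes; a floor at the 60th percentile gave 0.021. Against vector cells it gave cytosolic medians of 0.26 (untreated FIP1L1-PDGFRA) and -0.82 (treated ETV6-PDGFRB), and -0.12 for mitochondrial genes in the latter. A floor at the 40th percentile gave 6 members that fell and 0 that rose (5 cytosolic and 1 mitochondrial gene fell), with 588 genes rising in all. With no filter 0 members passed, and 59 genes fell and 48 rose. Leaving out either fusion line gave 0 calls, for members and for all genes (0 to 0), a design too small to bear on them. The 4 fusion arrays alone gave 0 members that rose. The pseudocount gave 1 mitochondrial gene that fell, Ears2, and 1 member in the test against the IL3 response. The mean of all probe sets gave 2 members that rose, 1 of them cytosolic. Of members past 1.5-fold, hybridization control scaling gave 9 lower in FIP1L1-PDGFRA cells, 17 lower in treated ETV6-PDGFRB against vector cells, and 1 higher in untreated FIP1L1-PDGFRA against vector cells. By the chosen probe sets, a 2-fold limit left 2 lower with ETV6-PDGFRB and 0 with FIP1L1-PDGFRA, and 1 and 0 lower in the treated comparisons. The single higher members became 0 at 2-fold, with hybridization control scaling and with the pseudocount, apart from Wars in untreated ETV6-PDGFRB cells, which was lost only at 2-fold. Sars2 in treated ETV6-PDGFRB cells was also lost (0) with the floor at the 60th percentile, and those in FIP1L1-PDGFRA cells (0) with the mean of all probe sets. The cause of these shifts was not tested.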

Other observations

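Members with a second probe set above the floor on all arrays offered a check of the chosen one. There were 16 such probe sets for 11 genes, and 15 of them had the sign of the chosen probe set in ETV6-PDGFRB cells and 16 in FIP1L1-PDGFRA cells. In the IL3 pair 10 of the 16 did. Second probe sets of Farsb had log2 ratios of -0.38 (242 to 186) and -0.13 there, against 0.07 for the chosen one. That of Iars had -0.21 (381 to 329), against 0.08 for the chosen one. The median gap between log2 ratios of 2 probe sets of a gene was 0.16 and 0.14 in the fusion lines. The exception in ETV6-PDGFRB cells was Hars, whose probe sets gave 0.15 and -0.28 with ETV6-PDGFRB. For Farsb, 2 further probe sets had lower ratios than the chosen one in ETV6-PDGFRB cells, at -1.34 and -1.11 against -0.65.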
